A study of Homo sapiens with 8 samples.

Results

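The genes of cholesterol and fatty acid synthesis were followed in DU145, a human prostate cancer cell line, on Affymetrix Human Gene 1.0 ST arrays. The set held 31 genes chosen by name for their place in the pathway, with earlier results of these data known. Of them, 29 had a probeset with a single gene symbol on the arrays, out of 33297 probesets and 18417 genes named in this way. Each gene was read at its brightest probeset. FDFT1 and HSD17B7 had no probeset with a single symbol under their names and were not analysed here. The 4 groups had 2 arrays each: FGF19 + TNFα, FGF19, TNFα and Mock. According to the labels, the FGF19 group received 50 ng/ml FGF19 with 100 µg/ml heparin for 100 min, and the TNFα group received 50 ng/ml TNFα for 90 min. The FGF19 + TNFα group received the same FGF19 and heparin 10 min before the same TNFα, and Mock was untreated. The methods of the study name lower doses of heparin and TNFα than the labels do. All cells had been moved to medium without serum on the day before treatment. Heparin was given with FGF19 and in no other group, so FGF19 and heparin cannot be told apart. The labels call the arrays biological replicates, while the methods speak of duplicate samples on duplicate arrays, so the spread between arrays of a group may be partly technical.

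Cells make cholesterol from acetyl-CoA by way of mevalonate, which is built up to farnesyl diphosphate, joined to squalene, closed to lanosterol and then trimmed to cholesterol. Most enzymes of this chain, and many of fatty acid synthesis, are transcribed under SREBP factors, which the escort protein SCAP carries from the endoplasmic reticulum to the Golgi for activation when sterols are scarce and which the INSIG proteins hold back when sterols are plentiful. FGF19, a ligand of FGFR4, is known in the liver as the intestinal hormone that restrains bile acid synthesis from cholesterol. TNFα, a cytokine of inflammation, signals to NFκB.

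SREBP factors act at promoters together with NF-Y and Sp1, so the RefSeq promoters of the set (GRCh38.p14, 250 bases before to 50 bases after each start) were searched on both strands for 4 words, whose matches may overlap one another. These were TCACNCCAC, the core of a sterol regulatory element, CCAAT for NF-Y, GGGCGG for Sp1 and the E-box CACGTG. There were 36 promoters for 26 of the 29 genes. CCAAT was found in 63.9% of them, against 34.6% of all 35116 promoters, and GGGCGG in 88.9%, against 45.0%. CACGTG was found in 13.9%, against 7.26%, and TCACNCCAC in 2.78%, against 1.13%. All 35116 promoters were counted, whatever the signal of their genes on the arrays. Median promoter G+C was 67.8% for the 26 genes, beside 62.7% over 15024 probesets with a promoter. The part of G+C in these shares was not tested. Only exact matches to TCACNCCAC within these promoters were counted, so a sterol element with other bases or farther away would be missed. The only match to the sterol element core lay in the promoter of SREBF2, which encodes an SREBP factor itself. The windows below show this match first and then, for each gene, the CCAAT word nearest to a start on its upstream side, for 4 genes that were lower on the arrays with FGF19 (MVK, MVD, LSS and EBP) and 3 that were not called in any comparison (HMGCS1, IDI1 and INSIG1). They are given 5′ to 3′ on the strand of the gene, with the matched word in capitals, as ATTGG where it lies on the other strand.
SREBF2, chr22:41832962-41832991, plus strand: tgacgcgccaTCACCCCACgcaccgcttcg
MVK, chr12:109573736-109573765, plus strand: tcgcgcgctctgATTGGctggcctgaagta
MVD, chr16:88663159-88663188, minus strand: ggctcgcacgggCCAATcctgtggtagcgc
LSS, chr21:46228907-46228936, minus strand: cgcggcgctctgATTGGttgcgtgggcgtc
EBP, chrX:48521766-48521795, plus strand: cttcgcttcaccATTGGctcgctccgtaag
HMGCS1, chr5:43313495-43313524, minus strand: ctaccggccgcgATTGGctgtgggagccac
IDI1, chr10:1048956-1048985, minus strand: ctggcgcgagcgATTGGctgcgcggcccgg
INSIG1, chr7:155297696-155297725, plus strand: cgccggcctcccATTGGttgcggccgcctc
Counting both strands of 1 promoter, MVK had 5 such words, MVD, EBP and IDI1 had 3 each, HMGCS1 had 2, and LSS and INSIG1 had 1 each. The word shown for MVK began 46 bases before the start of the gene, that of EBP 30 bases, that of MVD 85 bases and that of LSS 150 bases. In HMGCS1 the distance was 100 bases, in IDI1 87 bases and in INSIG1 170 bases. A CCAAT word was present in 10 of the 13 genes called lower with FGF19 relative to Mock and in 9 of the 13 other genes with a promoter, so the word was about as frequent on both sides. Among the lower genes without it were PMVK, SCAP and FADS1.

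Relative to Mock, 13 of the 29 genes were lower and 2 higher with FGF19, as called by limma at an adjusted p under 0.05. RNA of whole cultures was measured, so fewer cells expressing a gene and less RNA per cell cannot be told apart. Of all probesets, 32.2% were called in this comparison, 14.1% lower and 18.2% higher, whereas 44.8% of the set was lower and 6.9% higher. The median log2 difference of the set was -0.27, beside 0.08 over all probesets. Of the 9929 probesets with a single symbol that were at least as bright as the dimmest gene of the set, 54.5% were called, 26.7% lower and 27.9% higher. Of the set, 51.7% was called in either direction, with more calls on the lower side. These probesets were not matched to the set on signal beyond that minimum. The calls numbered 8 without Mock replicate 1, 9 without Mock replicate 2 and 9 without FGF19 replicate 1, against 17.3%, 17.3% and 23.4% of all probesets in the same fits. They numbered 8 when FGF19 and Mock alone were fitted, with 21.3% of all probesets.

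**Figure D1:**
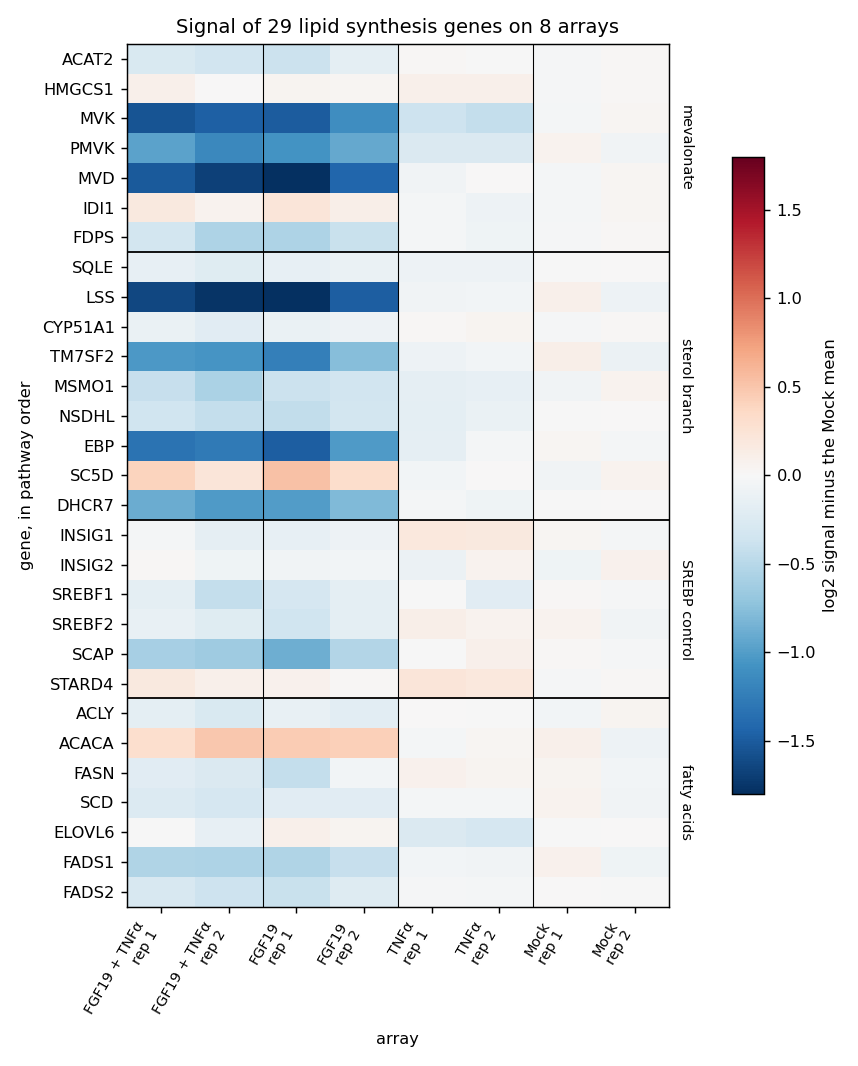
Each row is a gene of the set in pathway order and each column an array; the colour gives the log2 signal minus the mean of the 2 Mock arrays, from blue (lower) to red (higher). MVK, PMVK, MVD, LSS, TM7SF2, EBP and DHCR7 are blue on all 4 arrays with FGF19, deepest in LSS and MVD, and pale on the 4 without it.

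Most of these genes were also lower when FGF19 was added to TNFα. In FGF19 + TNFα relative to TNFα, 12 of the 29 genes were lower and 1 higher, with 32.4% of all probesets called, 12.9% lower and 19.4% higher. The median of the set was -0.28 and that of all probesets 0.10 on the log2 scale. The 12 genes called lower here were all among the 13 called lower with FGF19 relative to Mock. The 2 comparisons share no array, although they share the estimate of the spread. Calls numbered 8 without TNFα replicate 1, 7 without TNFα replicate 2 and 7 without FGF19 + TNFα replicate 2, against 16.8%, 15.7% and 13.5% of all probesets. After quantile normalization 3 genes were called higher and 10 lower, beside 15.3% and 14.2% of all probesets. For FGF19 + TNFα relative to Mock, 33.9% of all probesets were called, 14.7% lower and 19.3% higher. Of named probesets at least as bright as the dimmest gene of the set, 55.9% were called, 27% lower and 28.9% higher. The set had a median of -0.30 and 51.7% called, with 14 genes lower (48.3%) and 1 higher (3.45%). This count was 9 without Mock replicate 1, 8 without Mock replicate 2 and 8 without FGF19 + TNFα replicate 2, against 19.3%, 18.5% and 16.9% of all probesets.

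Taken array by array, 20 of the 29 genes had lower signal on each of the 4 arrays with FGF19 than on any of the 4 without it. That is 69.0% of the set, beside 18.4% of all probesets. ACACA, IDI1 and SC5D were higher on all 4 arrays with FGF19, which is 10.3% of the set and 25.5% of all probesets. The ranges of the remaining 6 genes, HMGCS1, INSIG2, SREBF1, STARD4, FASN and ELOVL6, overlapped. Array medians of the set relative to the Mock mean were -0.24 and -0.34 with FGF19 + TNFα, -0.38 and -0.19 with FGF19, and -0.04 and -0.03 with TNFα (log2 scale). The median over the set was thus below Mock on each array with FGF19 and near it on each array with TNFα alone.

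**Figure D2:**
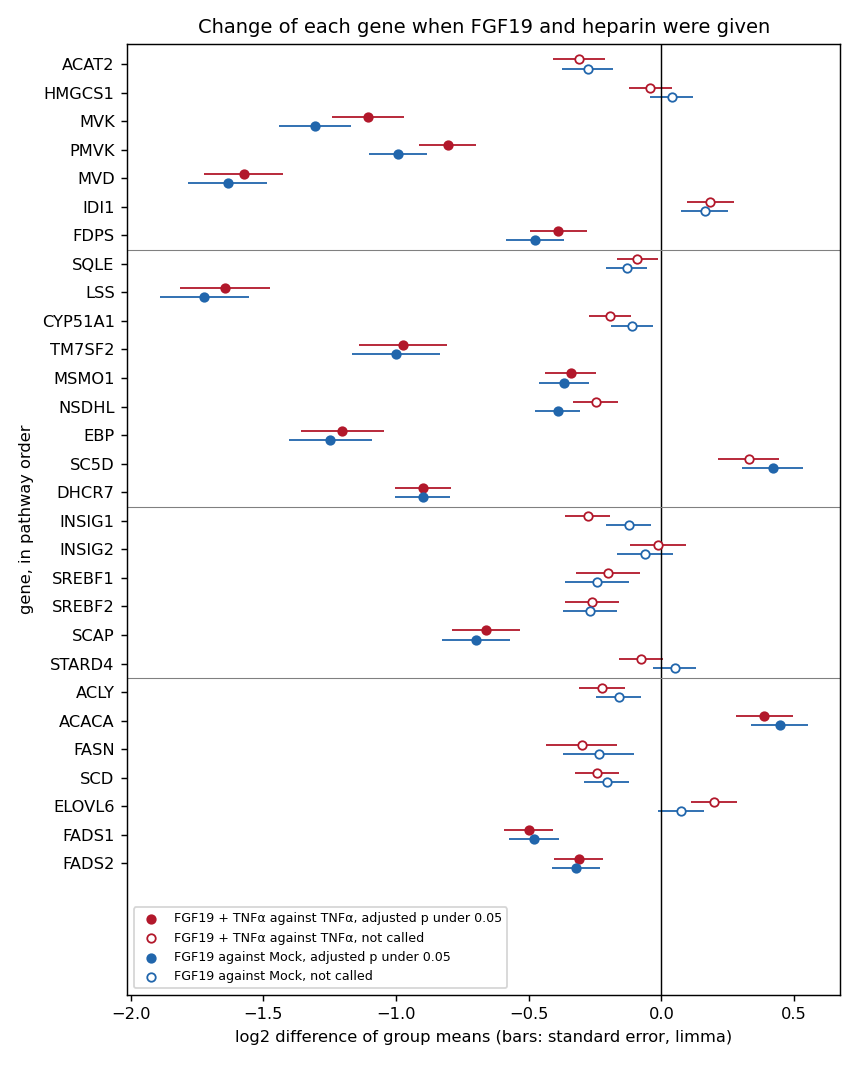
Points give the log2 difference of group means of each gene for FGF19 + TNFα against TNFα (red) and FGF19 against Mock (blue), with the limma standard error as bars; filled points were called at an adjusted p under 0.05 and open points were not. The largest falls were those of LSS, MVD, MVK and EBP in both comparisons, and the calls to the right of 0 were those of ACACA and SC5D.

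The mevalonate genes build isoprenoid units from acetyl-CoA. Of the 7 measured, 4 were lower with FGF19 in both comparisons (57.1%, beside 14.1% and 12.9% of all probesets). Of named probesets at least as bright as the dimmest gene of the set, 26.7% and 24.5% were lower. The median difference of the mevalonate genes was -0.48 for FGF19 relative to Mock and -0.39 for FGF19 + TNFα relative to TNFα. The 4 were MVK, PMVK and MVD, which encode the successive kinases and the decarboxylase that turn mevalonate into isopentenyl diphosphate, and FDPS, which encodes farnesyl diphosphate synthase. MVD had a signal of 203 and 181 in FGF19 + TNFα cells, 162 and 215 in FGF19 cells, 555 and 586 in TNFα cells and 564 and 598 in Mock cells. All 4 arrays with FGF19 lay far below the 4 without it, with no overlap. MVD was 3.11-fold lower with FGF19 than in Mock (log2 difference -1.64 ± 0.15 SE, limma adjusted p = 0.00275) and 2.98-fold lower in FGF19 + TNFα cells than in TNFα cells (-1.57 ± 0.15 SE, limma adjusted p = 0.00348).

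MVK gave 143 and 152 in FGF19 + TNFα cells, 149 and 193 in FGF19 cells, 325 and 311 in TNFα cells and 409.7 and 431 in Mock cells. Its arrays with FGF19 again formed the low group, and its TNFα arrays lay between these and Mock. The fall was 2.47-fold for FGF19 relative to Mock (log2 difference -1.31 ± 0.14 SE, limma adjusted p = 0.00283) and 2.15-fold for FGF19 + TNFα relative to TNFα (-1.11, limma adjusted p = 0.00383). PMVK gave 171 and 149 in FGF19 + TNFα cells, 159 and 177 in FGF19 cells, 280.0 and 279 in TNFα cells and 348 and 320.3 in Mock cells. It was 1.99-fold lower with FGF19 than in Mock (log2 difference -0.99 ± 0.11 SE, limma adjusted p = 0.00288) and 1.75-fold lower in FGF19 + TNFα cells than in TNFα cells (-0.81, limma adjusted p = 0.0046). FDPS moved less, with 2262 and 1944 in FGF19 + TNFα cells, 1942 and 2162 in FGF19 cells, 2777 and 2712 in TNFα cells and 2806 and 2898 in Mock cells. Its log2 differences were -0.48 (adjusted p = 0.0188) for FGF19 relative to Mock and -0.39 (adjusted p = 0.0375) for FGF19 + TNFα relative to TNFα in limma.

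The other mevalonate genes were not called in either comparison. HMGCS1, whose product condenses acetyl-CoA and acetoacetyl-CoA at the head of the pathway and which is a classical SREBP target, gave 5303 and 4974 in FGF19 + TNFα cells, 5119 and 5089.6 in FGF19 cells, 5273 and 5303 in TNFα cells and 4888 and 5054 in Mock cells. The arrays with and without FGF19 overlapped, and its log2 differences were 0.04 and -0.04 with a standard error of 0.08. IDI1, which encodes the isomerase of isopentenyl diphosphate, had differences of 0.16 (adjusted p = 0.217) and 0.18 (adjusted p = 0.162). ACAT2, which encodes the cytosolic thiolase that makes acetoacetyl-CoA, had differences of -0.28 (adjusted p = 0.0755) and -0.31 (adjusted p = 0.0547).

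**Figure D3:**
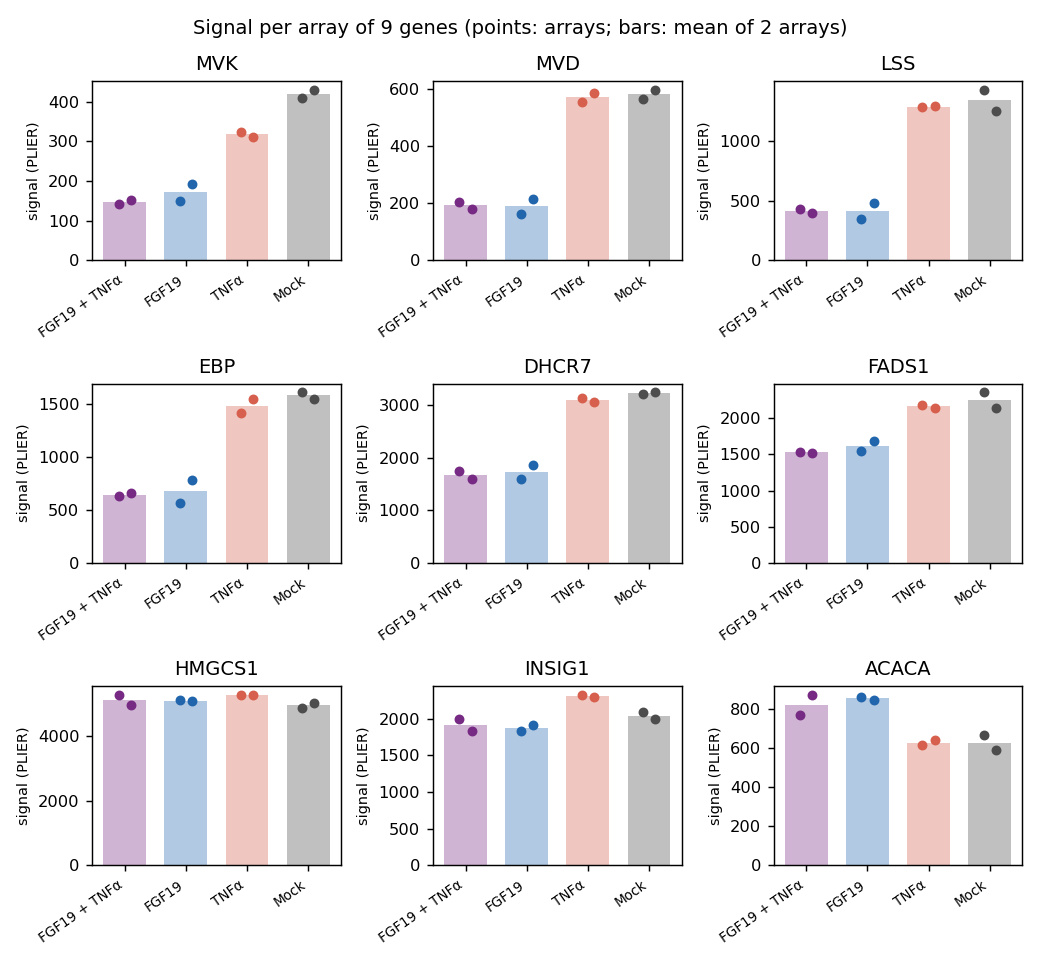
Linear PLIER signal of 9 genes on each array (points) with the mean of the 2 arrays (bars), in the order FGF19 + TNFα, FGF19, TNFα and Mock. MVK, MVD, LSS, EBP, DHCR7 and FADS1 were lower in both groups given FGF19, HMGCS1 was level across the 4 groups, INSIG1 lay highest with TNFα, and ACACA was higher in both groups given FGF19.

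Of the 9 genes measured in the sterol branch, which runs from squalene to cholesterol, 6 were lower and 1 higher with FGF19 relative to Mock, with a median of -0.39. For FGF19 + TNFα relative to TNFα 5 were lower and none higher, with a median of -0.34. The lower shares were 66.7% and 55.6%, beside 14.1% and 12.9% of all probesets. Of named probesets at least as bright as the dimmest gene of the set, 26.7% and 24.5% were lower. The higher share with FGF19 relative to Mock was 11.1%, beside 18.2% of all probesets. LSS, which encodes the lanosterol synthase that closes the sterol rings, had the largest fall of the whole set. Its signal was 431 and 392 in FGF19 + TNFα cells, 343 and 478 in FGF19 cells, 1282 and 1288 in TNFα cells and 1428 and 1252 in Mock cells. The arrays with FGF19 did not overlap the others. LSS was 3.30-fold lower with FGF19 than in Mock (log2 difference -1.72 ± 0.17 SE, limma adjusted p = 0.00276) and 3.13-fold lower in FGF19 + TNFα cells than in TNFα cells (-1.64, limma adjusted p = 0.00348).

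EBP, which encodes the sterol isomerase known as emopamil-binding protein, gave 630.3 and 654 in FGF19 + TNFα cells, 566 and 780.1 in FGF19 cells, 1414 and 1544 in TNFα cells and 1611 and 1546 in Mock cells. It was 2.37-fold lower with FGF19 than in Mock (log2 difference -1.25 ± 0.16 SE, limma adjusted p = 0.00351) and 2.30-fold lower in FGF19 + TNFα cells than in TNFα cells (-1.20, limma adjusted p = 0.00434). TM7SF2, a sterol reductase gene, gave 420.4 and 412 in FGF19 + TNFα cells, 366 and 506 in FGF19 cells, 808 and 828 in TNFα cells and 928 and 798 in Mock cells. Both genes had their FGF19 arrays low and well apart from the rest, and the FGF19 pair itself spread more widely than the FGF19 + TNFα pair. TM7SF2 was 2.00-fold lower with FGF19 than in Mock (log2 difference -1.001 ± 0.16 SE, limma adjusted p = 0.00677) and 1.96-fold lower in FGF19 + TNFα cells than in TNFα cells (-0.97, limma adjusted p = 0.00814).

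DHCR7, which encodes the reductase of the last step to cholesterol in one arm of the branch, gave 1744 and 1596 in FGF19 + TNFα cells, 1606 and 1874 in FGF19 cells, 3149 and 3067 in TNFα cells and 3219.8 and 3257 in Mock cells. Its log2 difference was -0.90 with a standard error of 0.10 in both comparisons (limma adjusted p = 0.00312 for FGF19 relative to Mock and 0.00368 for FGF19 + TNFα relative to TNFα). NSDHL and MSMO1, which act in the removal of the methyl groups of lanosterol, had smaller differences. NSDHL fell by 0.39 with FGF19 relative to Mock (limma adjusted p = 0.0162) and its difference of -0.25 for FGF19 + TNFα relative to TNFα was not called (adjusted p = 0.0702). MSMO1 fell by 0.37 (adjusted p = 0.03) and 0.34 (adjusted p = 0.0376) in the same comparisons.

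SC5D, which encodes a sterol desaturase acting just before DHCR7, ran the other way. It gave 2272 and 2010.4 in FGF19 + TNFα cells, 2491 and 2142 in FGF19 cells, 1669 and 1732 in TNFα cells and 1659 and 1798 in Mock cells, so that all arrays with FGF19 were above the others. It rose 1.34-fold with FGF19 relative to Mock (log2 difference 0.42 ± 0.12 SE, limma adjusted p = 0.0356), and its difference of 0.33 for FGF19 + TNFα relative to TNFα was not called (adjusted p = 0.0731). SQLE, the squalene epoxidase gene, and CYP51A1, the lanosterol demethylase gene, were not called, with differences of -0.13 and -0.11 for FGF19 relative to Mock. CYP51A1 has a second, dimmer probeset, on which the difference was -0.37 for FGF19 + TNFα relative to TNFα (standard error 0.09, adjusted p = 0.0255 from limma), beside -0.19 on the brighter one (adjusted p = 0.112), so the 2 probesets disagreed on the call.

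The genes that control the pathway moved less. In both comparisons 16.7% of the 6 measured was lower, beside 14.1% and 12.9% of all probesets. Of named probesets at least as bright as the dimmest gene of the set, 26.7% and 24.5% were lower. Of the 6, SCAP alone was called, and it was lower in both comparisons. It gave 153 and 148 in FGF19 + TNFα cells, 126 and 161 in FGF19 cells, 230.3 and 247 in TNFα cells and 235 and 228 in Mock cells, with no overlap between arrays with and without FGF19. It was 1.62-fold lower with FGF19 than in Mock (log2 difference -0.70 ± 0.13 SE, limma adjusted p = 0.00951) and 1.58-fold lower in FGF19 + TNFα cells than in TNFα cells (-0.66, limma adjusted p = 0.0125). The SREBP genes themselves were not called. SREBF2, the main SREBP gene of the cholesterol branch, gave 590.2 and 555 in FGF19 + TNFα cells, 503 and 571 in FGF19 cells, 696 and 676 in TNFα cells and 672 and 620.3 in Mock cells. Its differences were -0.27 (adjusted p = 0.0894) and -0.26 (adjusted p = 0.0948). SREBF1, tied more to fatty acid synthesis, had differences of -0.24 and -0.20 with a standard error of 0.12.

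INSIG1, a retention factor for SCAP and one of the most responsive SREBP targets in many cells, gave 1995 and 1835 in FGF19 + TNFα cells, 1840.2 and 1914 in FGF19 cells, 2333 and 2306 in TNFα cells and 2090.2 and 1999 in Mock cells. It was highest on the TNFα arrays. Its difference was -0.28 for FGF19 + TNFα relative to TNFα, just outside the threshold (limma adjusted p = 0.0517), and -0.12 for FGF19 relative to Mock (adjusted p = 0.322). INSIG2, a second retention factor, had differences of -0.06 and -0.01. STARD4, which encodes a carrier of cholesterol in the cytosol, had differences of 0.05 and -0.08.

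In fatty acid synthesis, 2 of 7 genes were lower and 1 higher in both comparisons, with medians of -0.21 and -0.24. The lower share of 28.6% was near the 26.7% and 24.5% of named probesets at least as bright as the dimmest gene of the set. It stood beside 14.1% and 12.9% of all probesets. The higher share was 14.3%, beside 27.9% and 27.4% of those named probesets and 18.2% and 19.4% of all. FADS1 and FADS2 encode the desaturases that act on long polyunsaturated chains. FADS1 gave 1539 and 1524 in FGF19 + TNFα cells, 1543 and 1684 in FGF19 cells, 2183 and 2148 in TNFα cells and 2364 and 2139 in Mock cells. It fell by 0.48 with FGF19 relative to Mock (limma adjusted p = 0.0111) and by 0.50 with FGF19 + TNFα relative to TNFα (adjusted p = 0.0107). FADS2 fell by 0.32 (adjusted p = 0.0411) and 0.31 (adjusted p = 0.0457). ACACA, whose product makes the malonyl-CoA used for chain building, rose with FGF19. It gave 769 and 874 in FGF19 + TNFα cells, 863 and 844 in FGF19 cells, 613 and 640.3 in TNFα cells and 668 and 587 in Mock cells, without overlap between arrays with and without FGF19. It was 1.36-fold higher with FGF19 than in Mock (log2 difference 0.45 ± 0.11 SE, limma adjusted p = 0.0233) and 1.31-fold higher in FGF19 + TNFα cells than in TNFα cells (0.39, limma adjusted p = 0.0371).

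FASN, which encodes the fatty acid synthase that uses malonyl-CoA, gave 667 and 641 in FGF19 + TNFα cells, 574 and 746 in FGF19 cells, 814 and 796 in TNFα cells and 798 and 746 in Mock cells. Its 2 FGF19 arrays differed widely, and neither of its differences, -0.24 and -0.30, was called. ACLY, which supplies acetyl-CoA from citrate, had differences of -0.16 and -0.22 and was not called. SCD, a desaturase gene for saturated chains, was called only for FGF19 + TNFα relative to Mock, with a log2 difference of -0.28 (limma adjusted p = 0.0484). In that comparison the other 13 genes called lower were the 13 that were lower with FGF19 relative to Mock, and the gene called higher was ACACA.

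With TNFα alone none of the 29 genes was called relative to Mock in limma, beside 1.06% of all probesets, and 3 of the 29 had an unadjusted p under 0.05. These were MVK, with a log2 difference of -0.40 (adjusted p = 0.311), ELOVL6, an elongase gene, with -0.28 (adjusted p = 0.283), and STARD4, with 0.21 (adjusted p = 0.387). ELOVL6 gave 620.4 and 603 with TNFα and 739 and 742 in Mock, and its differences of 0.07 for FGF19 relative to Mock and 0.20 for FGF19 + TNFα relative to TNFα were not called. For FGF19 + TNFα relative to FGF19 none was called either, beside 0.282% of all probesets (0.279% higher and 0.003% lower), and none had an unadjusted p under 0.05. The interaction of FGF19 and TNFα called none of the genes and 0.0% of all probesets, with none of the genes at an unadjusted p under 0.05, so no difference between the FGF19 effects with and without TNFα was detected at 2 arrays per group. The interaction estimates of the 29 genes ran between -0.15 and 0.20 on the log2 scale. By the limma F test among the 4 groups at an adjusted p of 0.015, 9 genes of the set were called, beside 20.9% of all probesets. With a 2-fold difference from Mock as well, 6 were called, beside 6.64%. These 6 were MVK, PMVK, MVD, LSS, TM7SF2 and EBP, and the other 3 were DHCR7, SCAP and FADS1. Both counts were smaller when either Mock array was left out. The shares of all probesets in those F tests are not given here, so the drop cannot be called particular to the set.

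**Figure D4:**
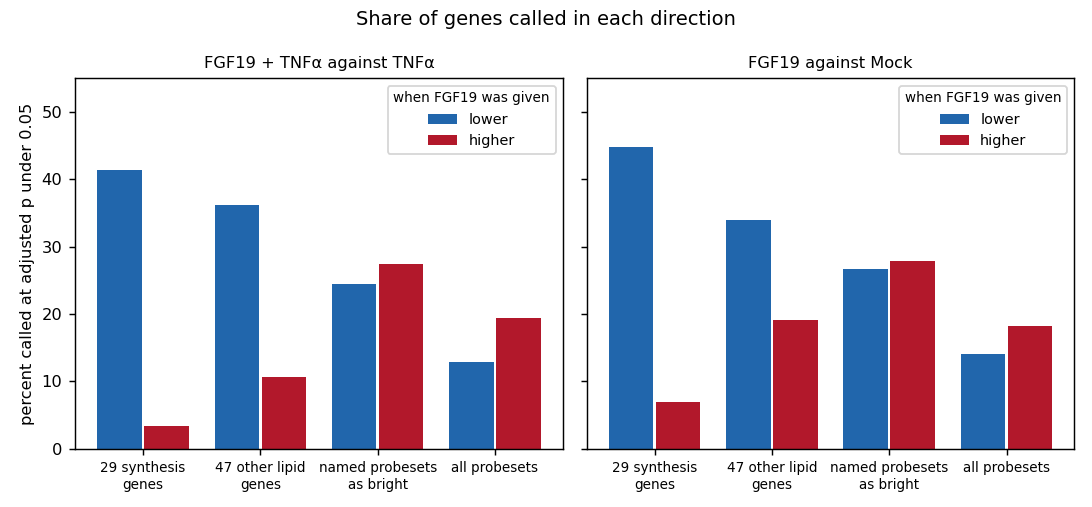
Bars give the percent of genes or probesets called lower (blue) and higher (red) at an adjusted p under 0.05 in FGF19 + TNFα against TNFα (left) and FGF19 against Mock (right). In the 29 synthesis genes 41.4% and 44.8% were lower, beside 24.5% and 26.7% of named probesets at least as bright as the dimmest of them and 12.9% and 14.1% of all probesets.

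Neighbouring lipid genes were read from lists of 47 measured genes. With FGF19 relative to Mock 16 were lower and 9 higher, and with FGF19 + TNFα relative to TNFα 17 were lower and 5 higher. The shares called in either direction were 53.2% and 46.8%. Of the named probesets at least as bright as the dimmest synthesis gene, 54.5% and 51.8% were called, and of all probesets 32.2% and 32.4%. The totals were near those of these named probesets, but the comparison is not matched on signal. Some of the 47 genes, among them FBXW7, DGAT1 and ABCA1, were dimmer than that minimum. With FGF19 relative to Mock, 34.0% of the 47 genes were lower and 19.1% higher, beside 26.7% and 27.9% of those named probesets and 14.1% and 18.2% of all probesets. Of 7 genes of glycerolipid synthesis, 4 were lower (57.1%, beside 14.1% of all probesets) and 2 higher (28.6%, beside 18.2%) with FGF19 relative to Mock. AGPAT2, an acyltransferase gene of phosphatidic acid synthesis, gave 195 and 227 in FGF19 + TNFα cells, 194 and 244 in FGF19 cells, 453 and 509 in TNFα cells and 568 and 501 in Mock cells. The log2 difference was -1.29 for FGF19 relative to Mock (limma adjusted p = 0.00318), beside -1.24 for DGAT1, which makes triglyceride, and -1.01 for PCYT2, which acts in phosphatidylethanolamine synthesis. DGAT1 and PCYT2 each had 2 probesets, of which the brighter was read. Cholesterol traffic and export had 7 of 11 genes lower (63.6%, beside 26.7% of those named probesets and 14.1% of all) and none higher, among them NPC2 (-0.65), STARD3 (-0.57) and NPC1 (-0.41), whose products handle cholesterol in lysosomes and endosomes.

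Of 14 genes of acyl-CoA supply and chain elongation, 4 were lower and 5 higher with FGF19 relative to Mock, which is 64.3% called, beside 54.5% of those named probesets and 32.2% of all. The 5 higher genes, named after their values were seen, were ACSL4 (0.50), ELOVL7 (0.42), HSD17B12 (0.40), ME1 (0.32) and ELOVL5 (0.29). Among the lower genes, the elongase gene ELOVL1 differed by -1.31, TECR, which encodes the reductase of very long chain elongation, by -0.87, and ACSS2, an acetyl-CoA synthetase gene and SREBP target, by -0.85. TECR had 2 probesets under its symbol, and only the brighter is given here. By its number this probeset lies among those of genes on chromosome 4, while TECR is on chromosome 19. Whether it reads TECR itself was not tested. Among 7 genes of SREBP processing and sterol-regulated degradation none was lower, beside 14.1% of all probesets. The 2 that were higher made 28.6%, near the 27.9% of those named probesets and beside 18.2% of all. These were MBTPS2, the gene of a protease that releases SREBP factors (0.32, limma adjusted p = 0.0292), and FBXW7, the gene of a ubiquitin ligase subunit that targets them (0.38, adjusted p = 0.0408). RNF139 had a difference of 0.20 that was not called (adjusted p = 0.0997). Of 8 genes of the isoprenoid branch 1 was lower (12.5%, beside 26.7% of those named probesets and 14.1% of all). This was PDSS2, which acts in ubiquinone synthesis (-0.55, limma adjusted p = 0.0094), while DHDDS (-0.31) and NUS1 (-0.14) were not called. With TNFα relative to Mock 1 gene of the lists was called (2.13% of the 47 genes, beside 1.06% of all probesets). It was the elongase gene ELOVL7, singled out after its values were seen. It gave 1623 and 1685 with TNFα and 666 and 630.2 in Mock (log2 difference 1.35, adjusted p = 0.00538 from limma).

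The arrays themselves were alike in scale. Their median signal ran between 99.5 and 106.6, while the 20th percentile of signal was 34.6 to 36.6 on arrays with FGF19 and 30.7 to 31.6 on those without. Log2 signal over all probesets correlated at 0.967 to 0.980 within a group, at 0.962 to 0.981 between arrays that differed in TNFα only and at 0.933 to 0.959 between arrays that differed in FGF19. Promoter G+C was correlated with the FGF19 difference at r = -0.15 across 15024 probesets with a promoter (genes are not independent replicates). The 13 genes of the set that were lower had a median promoter G+C of 67.3% and the 13 others with a promoter 68.2%. After a correction of each array for promoter G+C, 15 of the 15 calls for FGF19 relative to Mock were kept. The largest shift of a difference in the set was 0.05. That fit held only the 15024 probesets with a promoter, of which 44.1% were called, and 45.6% without the correction. In the main fit 32.2% of all 33297 probesets were called. Calls therefore passed more readily in the smaller fit, and the kept count alone cannot show the part of G+C. The part of G+C in the result was not tested beyond this. The epithelial markers EPCAM, KRT8, KRT18 and CDH1 had Mock means of 1477, 2528, 3412 and 566. KRT8 was lower with FGF19 relative to Mock (log2 difference -1.05, limma adjusted p = 0.00385). EPCAM (-0.13), KRT18 (-0.24) and CDH1 (0.23) were not called there. In FGF19 + TNFα relative to TNFα, 1 of the 4 was called lower and 1 higher, the latter being CDH1 (0.34). EPCAM and KRT18 each had 2 probesets under their symbol, and only the brighter is given here. By number, that of EPCAM lies among genes on chromosome 4, while the gene is on chromosome 2. That of KRT18 lies between genes on chromosomes 8 and 9, while the gene is on chromosome 12. Whether these probesets read the named genes was not tested. The leukocyte gene PTPRC and the fibroblast genes DCN and LUM had Mock means of 15.2, 16.5 and 23.1, below the 20th percentile of both Mock arrays. Of the other leukocyte and fibroblast markers, CD3E had a Mock mean of 41.3, CD14 of 94.6, COL1A2 of 61.2 and COL1A1 of 106, and CD3E was called higher with FGF19 (0.56). The part of the 20th percentile, KRT8, CDH1 and CD3E in the results was not tested.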

How the data were processed

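The authors deposited one table of linear signal intensity for 33297 probesets on 8 arrays, which the submitters' processing notes trace to PLIER in Affymetrix Expression Console; no version is given in the sources used here. Intensity was taken to log2 with no further normalization, and 240 values of 0 were first raised to 0.01, the lowest signal above 0 on each array. Probesets were named from the platform annotation (19460 with 1 symbol, 1754 with several and 12083 with none), with symbols brought up to date through Entrez identifiers. The labels gave each array's group. A model of the 4 groups was fitted to all arrays and probesets with limma 3.58.1 in R 4.3.3, and p-values were adjusted by Benjamini and Hochberg over all probesets. Calls were made at 0.05, and at 0.015 in the F test. Precision is limited by the number of arrays, since array signal is not a count.

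The members and lists were chosen with earlier results of these data known, so no test of a list was made. Every measured member was named at its brightest probeset, with full statistics for the 6 largest falls called and up to 4 of the largest rises called, of which there were 2 genes in all. Of each other list up to 3 genes with the smallest p for FGF19 relative to Mock were named. Some genes of these lists are not reported here, and the luminal marker KLK3 had a Mock mean of 49.9. Promoters came from RefSeq (GRCh38.p14). Alternatives covered normalization, 16 added before log2, the dimmest 20 percent left out, the variance prior, the groups fitted, the probeset rule, promoter G+C, the replicate block and each array left out. The fit was tested on simulated data with 200 changed probesets. Figures were drawn with matplotlib 3.10.9.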

Additional observations from a re-analysis of the deposited data

How the results depend on the processing

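MVK, PMVK, MVD, LSS, TM7SF2, EBP and DHCR7 kept their calls under all 19 alternatives in the 3 comparisons of groups with FGF19 against groups without it. No called value changed sign, and of 2855 values of single genes under an alternative 2664 kept their side of the threshold, 123 were no longer called and 68 became called. Relative to Mock, the FGF19 count of 15 was 8 when the 2 groups were fitted alone, while the share of all probesets went from 32.2% to 21.3%. For FGF19 + TNFα relative to TNFα, the count of 13 became 20 with a trended and robust prior, while the share of all probesets went from 32.4% to 35.1%. The F test called 4 genes with no moderation and 16 with the trended and robust prior, against 9. With a 2-fold difference it called 3 with no moderation, against 6. The shares of all probesets in these alternative F tests are not given here. In all of these the cause was not tested. Leaving out each array in turn gave 8 to 15 calls for FGF19 relative to Mock, 7 to 15 for FGF19 + TNFα relative to TNFα, 8 to 15 for FGF19 + TNFα relative to Mock, and 2 to 9 in the F test (2 to 7 with a 2-fold difference). Both F test counts were smaller without either Mock array, and for the F test the shares of all probesets in these fits are not given here. The medians then ran between -0.38 and -0.19, -0.33 and -0.22, and -0.34 and -0.24 in these comparisons, and between -0.0955 and 0.0375 for FGF19 + TNFα relative to FGF19, where the median of -0.05 turned positive without FGF19 replicate 2 (0.0375) and without FGF19 + TNFα replicate 2. With the replicate number as a block, 14, 9 and 12 genes were called in the 3 comparisons of groups with and without FGF19. The shares of all probesets were 32.1%, 32.2% and 33.9%. There was little sign that the numbers paired the arrays. Differences between replicates 1 and 2 correlated at -0.02 to 0.20 between groups, highest between FGF19 and FGF19 + TNFα. Such correlations over all probesets cannot exclude a pairing. Promoter G+C correction gave 19 calls for FGF19 + TNFα relative to TNFα, and 17 were found among genes with a promoter without it, a comparison chosen after seeing the data. Of the 15024 probesets with a promoter, 43.7% were called with the correction and 46.5% without it. With 2 arrays per group, differences under about the size of those of FADS2 and FDPS lost their calls under several alternatives, and signal is a hybridisation value without a detection call.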
